A study of Drosophila melanogaster with 8 samples.

Results

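The salivary gland glue genes Sgs3, Sgs5, Sgs7 and Sgs8 were each read by 1 probe set on these ovary arrays, 4 of the 18769 probe sets compared and 4 of the 11953 named genes. They were picked by their high RMA signal in replicate 1 of both labels, and every probe set annotated to one of these genes alone was taken. Since these same arrays decided the choice, the height of the replicate 1 arrays is described without a test.

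Glue proteins are made by the salivary glands of the larva late in its last instar, where the steroid hormone ecdysone switches the Sgs genes on. The glands secrete the glue at the onset of metamorphosis to stick the puparium to its substrate, and they are destroyed in the pupa soon after. Sgs3 encodes a mucin-like protein with a long threonine-rich stretch. Sgs7 and Sgs8 encode short cysteine-rich relatives of it, and all of them lie in one cluster on chromosome arm 3L. Sgs5 encodes a further secreted glue protein from chromosome arm 3R.

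The study asked how loss of Otefin, a LEM domain protein of the nuclear lamina encoded by ote, affects transcription in ovaries. Its 8 RNA samples, each pooled from about 100 ovary pairs and run on 1 Affymetrix Drosophila 2.0 array, were 4 null samples and 4 het samples. Null females carried otefinPk on a chromosome with a mutant Chk2 allele, over otefinG. Het females were siblings that carried the same otefinPk and Chk2 chromosome over the balancer CyO. The Chk2 allele was Chk2P30 in replicates 1 and 2 and Chk2P6 in replicates 3 and 4 of both labels, so all females had 1 mutant copy of Chk2, the checkpoint kinase. The labels describe virgin females at 4 to 6 h after eclosion, whereas the methods give an age of 1 day, and the methods place the other ote allele on the P30 chromosome. Neither source ties replicate 1 of null to replicate 1 of het by a day, litter or vial.

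Values are RMA signals read as log2, on which an increase of 1 is a doubling. A signal depends on the probes as well as the RNA, so no gene's level was set against another's. In pooled ovaries, fewer cells of a type and less RNA per cell cannot be told apart. Array medians lay between 5.61 and 5.72, and the correlation of arrays between 0.957 and 0.990, with the highest value for null 1 with het 1. Germline genes were bright throughout, with a mean signal of 9.75 to 10.0 over 9 genes in null arrays and 9.79 to 10.1 in het arrays. Ote itself had signals of 7.58, 7.48, 8.56 and 8.66 in null 1 to 4, against 9.26, 7.27, 9.66 and 9.29 in het 1 to 4. The array labelled het 2 was below all null arrays for Ote, and arrays are called here by their deposited labels. The array labelled het 3 stood apart for male accessory gland genes, as given below.

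The glue genes had high signals on null 1 and het 1 and low to middling signals on the other 6 arrays. Sgs3 had signals of 10.69, 4.66, 4.97 and 4.64 in null 1 to 4, against 11.36, 5.02, 6.63 and 4.49 in het 1 to 4. Sgs7 had 10.16, 3.96, 4.51 and 4.09 in null 1 to 4, against 11.10, 4.10, 6.25 and 4.30 in het 1 to 4. Both genes were thus highest in het 1, next highest in null 1 and then in het 3. Sgs8 had 10.59, 4.10, 4.79 and 3.77 in null 1 to 4, against 11.57, 4.16, 6.03 and 4.31 in het 1 to 4. Sgs5 had 8.81, 3.87, 3.99 and 3.58 in null 1 to 4, against 9.74, 3.96, 4.07 and 3.47 in het 1 to 4. For every one of the 4 genes the arrays fell into replicate 1 and the other 6, which is what they were picked for. The null and het ranges therefore had to overlap.

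**Figure D1:**
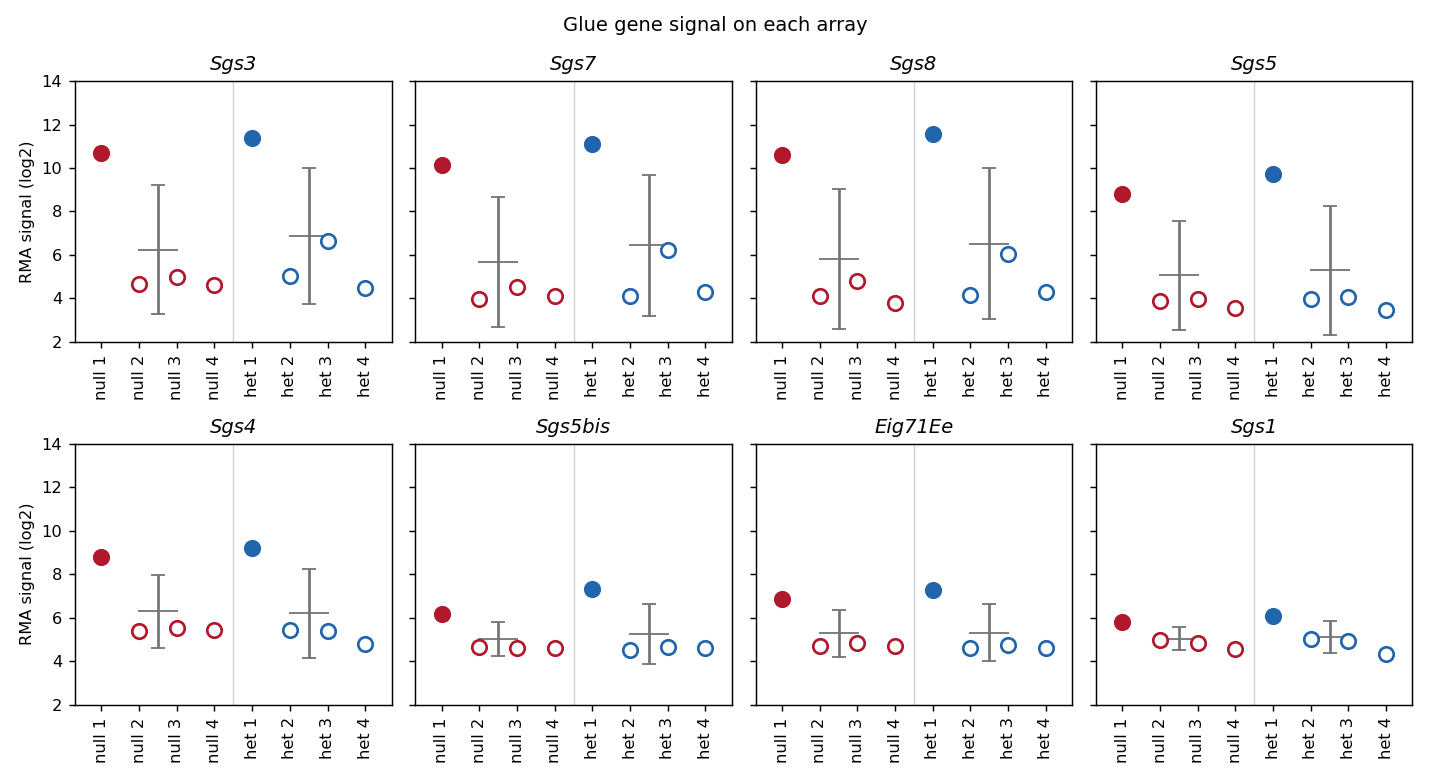
RMA signal (log2, vertical axis) of 8 glue genes on each array, with null arrays in red and het arrays in blue; filled points are replicate 1, and grey bars are the label mean ± SD (n = 4). Sgs3, Sgs7, Sgs8 and Sgs5 lay at 8.81 or above on null 1 and het 1 and at 6.63 or below on the other 6 arrays, and Sgs4, Sgs5bis, Eig71Ee and Sgs1 were also highest on those arrays.

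The replicate 1 excess, the lower of null 1 and het 1 minus the highest of the other 6 arrays, was 4.06 for Sgs3, 3.91 for Sgs7, 4.56 for Sgs8 and 4.74 for Sgs5. The other 6 arrays are dim for these genes, so a fold taken over them would depend on how RMA treats low signals, and differences are left on the log2 scale. Within the P30 background, which holds replicates 1 and 2 of each label, null 1 exceeded null 2 by 4.93 to 6.48 and het 1 exceeded het 2 by 5.78 to 7.41 on the log2 scale. These gaps restate what the genes were picked for and are given as values only. Ranked among all probe sets of an array, the 4 genes stood at percentiles 72.3 to 94.0 on null 1 and het 1 and at 8.34 to 57.8 on the other 6. By their SD over the 8 arrays they ranked between 2 and 30 of the 18769 probe sets.

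All 4 genes were lower in null 1 than in het 1, by 0.68 to 0.99 on the log2 scale. With 1 array on each side this difference has no replicate check. Over all probe sets het 1 was above null 1 for 50.8%, and by 0.5 or more for 4.36%.

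The array labelled het 3 separated the cluster genes from Sgs5. Outside replicate 1, het 3 was the highest of the 6 arrays for all 4 genes, as it was for 13.4% of all probe sets. On the log2 scale it was above the median of the other 5 arrays by 1.97 for Sgs3, 2.15 for Sgs7 and 1.86 for Sgs8, and by 0.19 for Sgs5. At least 2-fold above the highest of those 5 arrays were the 3 cluster genes, and 0.405% of all probe sets. The same array carried the male accessory gland genes, whose list mean over 11 genes was 8.51 on het 3, against 4.87 to 5.22 on the null arrays and 4.71 to 5.62 on the other het arrays. Acp53Ea, which encodes a seminal fluid protein, had 4.21, 3.69, 4.38 and 4.39 in null 1 to 4, against 3.51, 5.51, 9.59 and 4.80 in het 1 to 4. The accessory gland genes were at the level of the other arrays on null 1 and het 1, and their part in the het 3 glue signal was not tested.

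Whether the glue genes differed between null and het could not be decided by the tests over all arrays. The 4 genes were picked for a high array in each label, which largely sets their spread within null and het. They could hardly pass, so their counts below test nothing. The contrast was tested with limma over all probe sets. A change of at least 2-fold with an unadjusted p under 0.05, as the methods ask, was called for 28 probe sets, or 0.149%, and for 0 of the 4 glue genes. At an adjusted p under 0.05 it called 0 probe sets, where 423 (2.25%) had an unadjusted p under 0.05. An unmoderated test called 0 at the adjusted threshold and 586 (3.12%) at the unadjusted one, and 0 of the 4 glue genes. None of the 4 glue genes had groups that did not overlap, which the way they were picked had fixed in advance. Of all probe sets 1.82% had such groups.

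Sgs3 averaged 6.24 ± 2.97 in null arrays and 6.88 ± 3.13 in het arrays (SD, n = 4 each), a log2 difference of -0.64 with an SE of 1.88 and a 95% interval from -4.99 to 3.71. Sgs7 averaged 5.68 ± 3.00 in null and 6.44 ± 3.26 in het (SD, n = 4 each), a difference of -0.76 with an SE of 1.93. For Sgs8 the means were 5.81 ± 3.21 in null and 6.52 ± 3.47 in het (SD, n = 4 each), and the difference was -0.70 with an SE of 2.06. For Sgs5 they were 5.06 ± 2.50 in null and 5.31 ± 2.97 in het (SD, n = 4 each), and the difference was -0.25 with an SE of 1.69. All 4 means were lower in null by less than the SD of either label. The high array picked in each label largely sets these SDs, so the p-values that follow decide nothing. The adjusted p from limma was 1.00 for each, and exact two-sided permutation tests over the 8 arrays gave p from 0.571 to 0.714, where 4 against 4 allows no p below 0.0286. The 95% intervals of the 4 genes began between -5.48 and -4.16 and ended between 3.67 and 4.07, so that large differences in either direction lie within them.

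**Figure D2:**
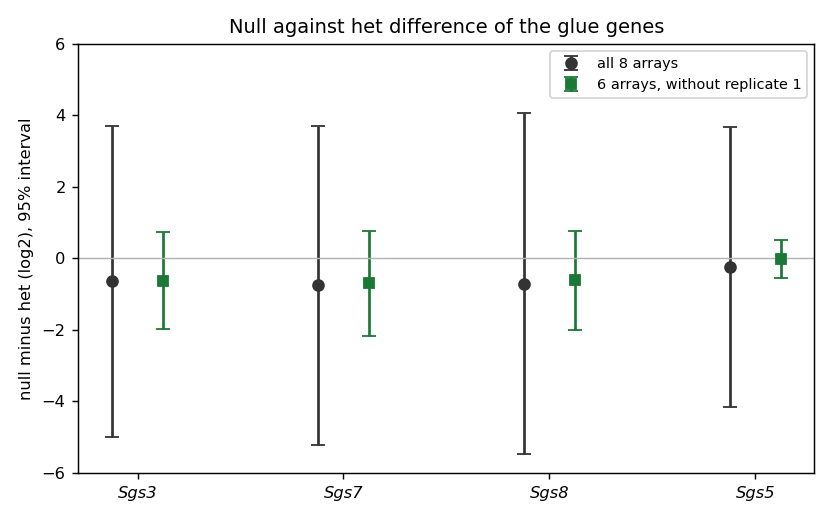
Null minus het difference of each glue gene (log2, vertical axis) with its 95% interval from limma, over all 8 arrays (circles) and over the 6 arrays outside replicate 1 (squares). All intervals include 0. Without replicate 1 the interval for Sgs5, dim on those 6 arrays at 3.47 to 4.07, narrows to -0.54 to 0.50. Those of the cluster genes stay wider.

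Without both replicate 1 arrays, 3 null and 3 het arrays gave a difference of -0.62 (SE 0.55) for Sgs3, -0.70 (SE 0.59) for Sgs7, -0.61 (SE 0.56) for Sgs8 and -0.02 (SE 0.21) for Sgs5. Of these 6 arrays het 3 had the highest signal of every cluster gene. Sgs5 was dim on all 6, at 3.47 to 4.07, so its small SE says little about low levels of RNA. The sign over all 8 arrays depended on single arrays. As the genes were picked for 1 high array in each label, a swing on leaving out that array restates the choice. Without het 1 the differences were 0.86 for Sgs3, 0.80 for Sgs7, 0.98 for Sgs8 and 1.23 for Sgs5, and without null 1 they were -2.12, -2.25, -2.30 and -1.49 in the same gene order. Leaving out the array labelled het 2, which was low for Ote, gave -1.26, -1.53, -1.49 and -0.70.

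The null minus het difference was also taken within each background, at 2 arrays a group. For Sgs3 it was -0.52 (SE 2.64) in P30 and -0.75 (SE 2.64) in P6, and for Sgs5 it was -0.51 (SE 2.24) in P30 and 0.02 (SE 2.24) in P6. The interaction of genotype and background had an SE of 3.17 to 4.16 for the 4 genes and an adjusted p of 1.00 for each by limma. Over all probe sets 0 interactions had an adjusted p under 0.05, and 1.13% an unadjusted one. A null minus het difference that changed with background was not detectable with this spread. Both arrays picked as high lie in P30, 1 in each label, which largely sets the spread. P30 against P6 itself was not tested.

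Across the 8 arrays the 4 genes followed one another closely. Pearson's r of pairs of them was 0.975 to 0.998, lowest for Sgs7 with Sgs5 and highest for Sgs7 with Sgs8, and Spearman's rho was 0.786 to 0.976. All 4 genes were picked for their height on the same 2 arrays, which largely sets r. The 8 points also share labels and backgrounds, so r is given as a description.

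A further 34 probe sets had both replicate 1 arrays at least 2-fold above all other arrays, which made 38 with the glue genes, or 0.202% of the probe sets. The opposite pattern, both replicate 1 arrays at least 2-fold below all others, was seen for 2, or 0.0107%. Of the 34, 26 were annotated to 1 gene and 8 had no gene name. Their excess was 1.02 to 4.66 with a median of 1.89, and 15 were at least 4-fold above the other arrays, which with the 4 glue genes made 0.101% of all probe sets. On the other 6 arrays 30 of the 34 had a median signal below that of the median probe set, so most were dim outside replicate 1. The named genes lay on all the large chromosome arms, with 5 on 2L, 2 on 2R, 8 on 3L, 9 on 3R and 2 on X.

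**Figure D3:**
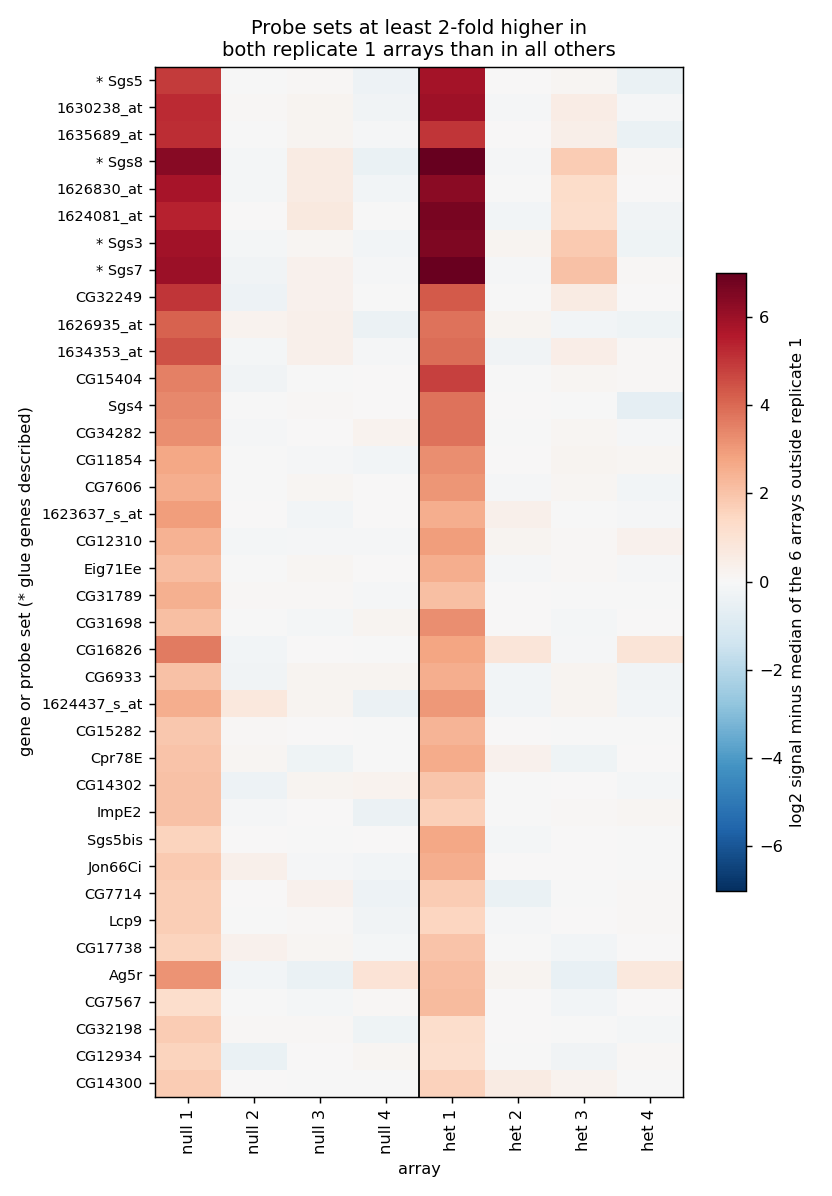
Signal of the 38 probe sets at least 2-fold higher on both replicate 1 arrays than on all others, as log2 minus the median of the 6 arrays outside replicate 1 (colour), with arrays across and probe sets down in order of their replicate 1 excess. Stars mark Sgs3, Sgs5, Sgs7 and Sgs8; the null 1 and het 1 columns are red in every row, and het 3 is red for Sgs3, Sgs7, Sgs8 and some unnamed probe sets.

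Other glue genes stood among them. Sgs4, a glue gene of the X chromosome, had 8.79, 5.40, 5.51 and 5.44 in null 1 to 4, against 9.22, 5.44, 5.38 and 4.77 in het 1 to 4. Eig71Ee, which encodes a mucin-like glue protein of the 71E puff, had 6.87, 4.69, 4.84 and 4.69 in null 1 to 4, against 7.26, 4.63, 4.76 and 4.59 in het 1 to 4. Sgs5bis, the neighbour of Sgs5, had 6.18, 4.67, 4.62 and 4.62 in null 1 to 4, against 7.33, 4.49, 4.64 and 4.59 in het 1 to 4. In these 3 genes het 1 was above null 1, as in the 4 glue genes picked, and het 3 lay among the low arrays. Sgs1, the glue gene of arm 2L, was also highest on both replicate 1 arrays, at 5.78, 4.99, 4.82 and 4.57 in null 1 to 4 and 6.09, 5.02, 4.93 and 4.32 in het 1 to 4, with an excess of 0.76. Of the ng genes, which form a cluster near Sgs4 and are expressed in the same glands, ng2 had an excess of 0.69, ng1 of 0.38, ng3 of 0.11 and ng4 of -0.35. Over this list of 8 measured genes, 3 had an excess of at least 1, against 0.251% of all named genes, and the mean of null 1 and het 1 exceeded that of the other 6 arrays in all 8, by a median of 1.26, against 0.02 over all named genes.

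By likeness to the mean of the 4 glue genes, 37 of all 18769 probe sets had r of at least 0.95, and 30 of these were among the 38, 26 of them beside the 4. As the 38 were taken for their height on the arrays that weigh most in r, this overlap largely restates how they were found. Most alike among named genes were CG11854, at r = 0.99 and an excess of 2.50, CG7606, at r = 0.99 and 2.42, and Eig71Ee, at r = 0.99 and 2.03. The largest excesses among named genes outside the 4 were 3.71 for CG32249, 3.40 for CG15404, 3.28 for Sgs4 and 3.01 for CG34282. CG32249 had 9.45, 4.07, 4.74 and 4.41 in null 1 to 4, against 8.74, 4.41, 5.03 and 4.50 in het 1 to 4, so that here null 1 was the higher of the replicate 1 arrays. CG15404 had 8.80, 5.03, 5.21 and 5.28 in null 1 to 4, against 10.03, 5.21, 5.40 and 5.34 in het 1 to 4. Null 1 was the higher in 14 of the 34 and het 1 in 20, and by 0.5 or more these were 5 and 14.

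The remaining genes given by rank of r or of excess were CG12310 with an excess of 2.10, CG31789 with 2.00, CG31698 with 1.90, CG16826 with 1.88, CG6933 with 1.85, CG15282 with 1.77 and CG14302 with 1.67. Cpr78E, a cuticular protein gene, had 1.70. ImpE2, which ecdysone induces in imaginal discs, had 1.57, the larval cuticle gene Lcp9 had 1.43 and Jon66Ci, a digestive serine protease gene, had 1.45. Probe sets with no gene name had the largest excesses outside the 4, 4.66 and 4.62. On het 3, none of the 34 was 2-fold above the highest of the other 5 arrays, but 2 probe sets with no gene name were 1.33 and 1.25 above their median on the log2 scale. None of the 34 passed the study's thresholds between null and het, which 0.149% of all probe sets did. Taken for 1 high array in each label, they could hardly pass, so this count tests nothing. Just inside the 2-fold limit were CG12934 at 1.03 and CG14300 at 1.02, and just outside it CG14258 at 0.999 and CG5084 at 0.990.

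**Figure D4:**
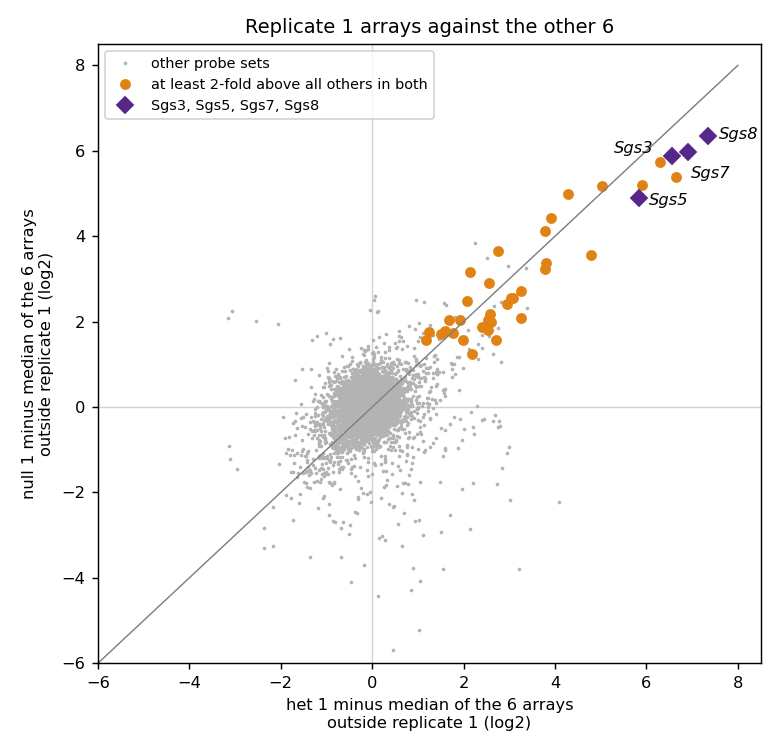
Null 1 (vertical axis) against het 1 (horizontal axis) for all 18769 probe sets, each as log2 signal minus the median of the 6 arrays outside replicate 1, with a line where both are equal. Sgs3, Sgs5, Sgs7 and Sgs8 (diamonds) lie at the upper right below the line, the 34 other probe sets high in both arrays (large points) lie on either side of it, and most probe sets sit near 0.

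The genes next to the glue genes on the chromosome were read from the order of the reference annotation. Sgs8, Sgs7 and Sgs3 follow one another with CG33272 between Sgs7 and Sgs3. CG33272 was dim on every array, at 2.95 to 3.32 in null and 2.91 to 3.02 in het, and did not share the replicate 1 signal of the genes on either side. On the outer sides Fum3, Vha16-3 and Vha16-2, and CG7512, Mob2 and CG7394, had an excess below 0. At Sgs5 both direct neighbours followed it, Sgs5bis with an excess of 1.52 and CG7606 with 2.42, whereas Prx3, Hmx, sll and CG14329 beyond them had an excess below 0.

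Genes for other functions of the salivary gland formed a pair of lists of 8 measured genes each. The late puff genes, which the gland transcribes after the glue genes when ecdysone peaks, had an excess of at least 1 in 0 of 8 and a median difference of replicate 1 from the rest of 0.23. Among them, Eig71Eg had 3.82, 3.26, 3.35 and 3.35 in null 1 to 4, against 3.82, 3.36, 3.41 and 3.15 in het 1 to 4. Among regulators and enzymes of the gland the excess reached 1 in 0 of 8, with a median difference of 0.07. With 0.251% of all named genes reaching it, a count of 0 in 8 genes is near the background. The transcription factor gene fkh, which activates Sgs genes in the gland, had 4.60, 4.93, 5.20 and 4.58 in null 1 to 4, against 4.12, 5.35, 4.52 and 5.09 in het 1 to 4. Its partner sage lay between 4.65 and 5.10 in null and between 4.61 and 5.14 in het, with 5.10 on null 1 and 5.14 on het 1. Of the regulators, fkh was thus not high on null 1 and het 1, while sage was highest on het 1, with 5.12 on het 4 above null 1. The mean of null 1 and het 1 exceeded that of the other 6 arrays in 6 of 8 genes of either list. Over all named genes it did so in 6602 of 11953.

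Lists for other larval and adult tissues are set beside the share of all named genes with an excess of at least 1, which was 0.251% and includes the glue genes. Of the ecdysone-regulated genes 1 of 14, ImpE2, had an excess of at least 1, of the cuticle genes 1 of 8, Lcp9, and of the midgut digestive enzymes 1 of 22, Jon66Ci. Each of these shares rests on a single gene. In lists of this size any 1 gene lifts the share above 0.251%, so these counts say nothing about the lists as a whole. Fat body genes had 0 of 4, and Lsp2, a larval serum protein gene, was bright on all arrays, at 10.38, 10.34, 9.78 and 9.04 in null 1 to 4 and 10.45, 10.19, 8.72 and 9.99 in het 1 to 4. The mean signal of the midgut list was 6.19, 8.70, 7.46 and 6.39 in null 1 to 4, against 7.18, 5.51, 6.20 and 5.57 in het 1 to 4, so it was highest on null 2 and did not follow the glue genes. Yolk protein, muscle, accessory gland, testis, hemocyte, neuron, small heat shock, germline and follicle cell lists each had 0 genes with an excess of at least 1, which in lists of 2 to 11 genes is near the background.

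**Figure D5:**
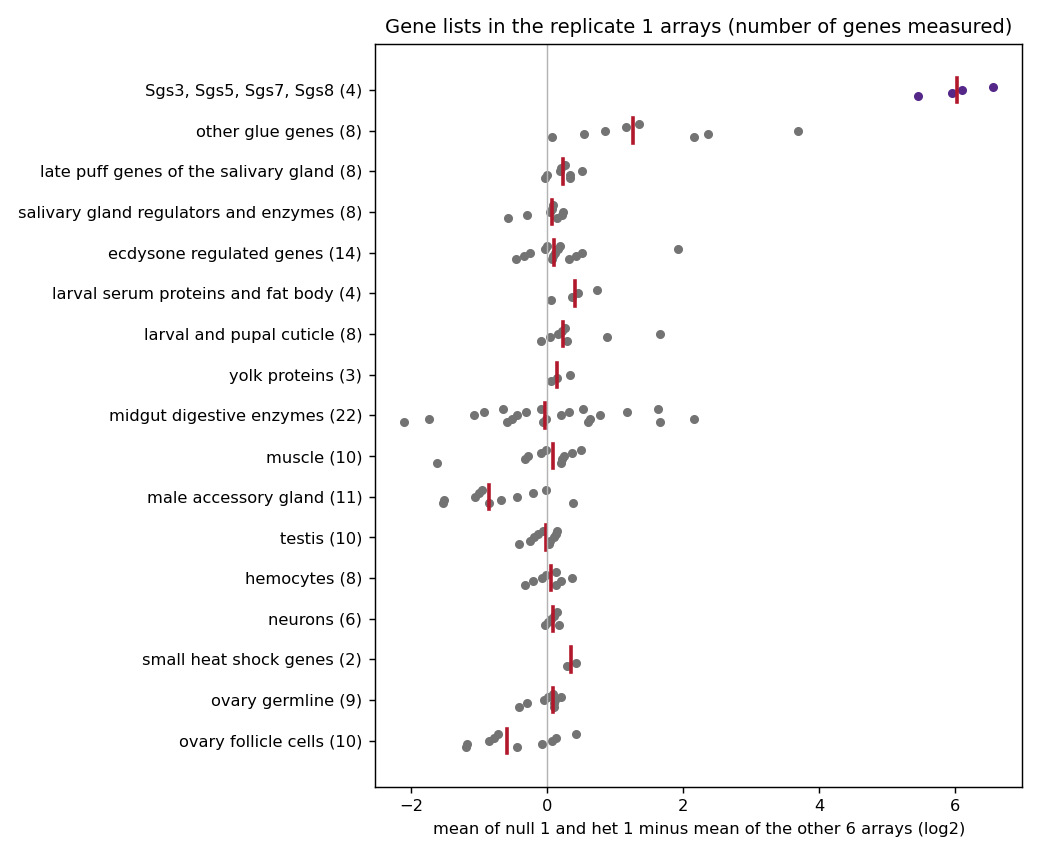
Difference between the mean of null 1 and het 1 and the mean of the other 6 arrays (log2, horizontal axis) for each measured gene of 17 lists, with the number measured in brackets and the list median as a red bar. Sgs3, Sgs5, Sgs7 and Sgs8 lie above 5 and the other glue genes have a median of 1.26. The other lists have medians below 0.5, the lowest being -0.86 for male accessory gland and -0.59 for ovary follicle cells.

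Signs of RNA quality were compared on the same arrays. The log2 difference between the 3 prime and 5 prime control probe sets was 1.37 on null 1 and 1.74 on het 1 for actin, within 1.31 to 2.05 on the other 6 arrays. For GAPDH it was 1.90 on null 1 and 1.95 on het 1, within 1.55 to 2.09, and for 18S rRNA 1.42 on null 1 and 1.02 on het 1, within 0.815 to 2.05. For eIF-4a null 1 had 2.37 and het 1 2.91, against 2.41 to 3.30, so that null 1 was just below the others. The follicle cell list varied widely within both labels, from 7.51 to 12.2 in null and from 7.30 to 11.2 in het, with 7.51 on null 1 and 10.8 on het 1. The germline list had 9.93 on null 1 and 9.88 on het 1, within the range of the other arrays.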

How the data were processed

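RNA of 8 ovary samples, 4 null and 4 het, was hybridized to Affymetrix Drosophila 2.0 arrays after amplification. The deposited log2 values are RMA signals made by the authors, for which the submitters' notes name Affymetrix Expression Console 1.4.1 and the methods the Transcriptome Analysis Console. No source gives the log base, and base 2 was inferred from values of 2.37 to 14.5. RMA brings all arrays to the same distribution, so a signal is relative to the rest of its array, and no detection calls were used. The number of arrays limits the precision. Separate ovary pools are biological replicates per the methods, and no source says what null and het samples of the same number share.

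Of 18952 probe sets 183 controls were left out. The platform annotation gave 1 gene for 13647 probe sets, several for 402 and none for 4720. Current names came from the annotation of assembly Release 6 plus ISO1 MT, by gene number for 13544, symbol for 6 and synonym for 85, while 12 stayed as deposited. A gene with more than 1 probe set was represented by the brightest on average.

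The null minus het contrast was fitted in R 4.3.3 by limma 3.58.1 (lmFit, eBayes, no covariate, Benjamini-Hochberg adjustment over 18769 probe sets), which was also tested on simulated data, and with exact permutation tests (scipy 1.17.1). Pearson's r between a probe set and the mean of the 4 glue genes was taken over 8 arrays. Named genes were the members, the salivary gland lists, the 15 genes of highest r and the 15 of largest excess among those with an excess of at least 1, up to 4 genes per list and 3 neighbours on each side. The members, the 16 further gene lists and the rule were chosen with earlier results of these data known. Alternatives were background or replicate number as a block, an unmoderated test, trended and robust variances, array weights, cyclic loess, median centring, removal of dim probe sets, other folds, Spearman's rho, each array left out and both replicate 1 arrays left out. The last of these together with the replicate block was chosen after seeing the data.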

Additional observations from a re-analysis of the deposited data

Results flagged for a closer look

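Among the 4 arrays of a label, an array was picked out where its gap to the nearest other array divided by the range of the label exceeded Dixon's critical value for 4 samples. This was asked of 70 genes in both labels, 140 groups in all, and 44 were past it, of which 38 had a replicate 1 array as the highest. Chance flags about 1 in 20 groups. Sgs3, Sgs5, Sgs7 and Sgs8 were picked for their height in replicate 1, and the genes that followed them were taken for an excess there, so the choice itself put replicate 1 far from the rest. For all of these genes the gap ratios below are descriptions and test nothing.

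Null 1 was the highest null array with a gap ratio of 0.944 for Sgs3, 0.911 for Sgs7, 0.850 for Sgs8 and 0.921 for Sgs5. Among the other glue genes the ratio for null 1 was 0.966 for Sgs4, 0.968 for Sgs5bis, 0.934 for Eig71Ee and 0.990 for ng3, and the late puff gene Eig71Eg had 0.831. For the genes that followed the glue genes it was 0.941 for CG11854, 0.975 for CG12310, 0.946 for CG15282, 0.932 for CG15404, 0.951 for CG16826, 0.848 for CG31698, 0.940 for CG31789, 0.877 for CG32249, 0.909 for CG34282 and 0.945 for CG7606.

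Het 1 was the highest het array with a gap ratio of 0.905 for Sgs5, 0.850 for Sgs4, 0.948 for Sgs5bis and 0.939 for Eig71Ee. Sgs3, Sgs7 and Sgs8 were not past the limit in het, where het 3 lay between het 1 and the others. The ratio for het 1 was 0.934 for CG11854, 0.916 for CG12310, 0.936 for CG14302, 0.981 for CG15282, 0.961 for CG15404, 0.944 for CG31698, 0.975 for CG31789, 0.856 for CG32249, 0.946 for CG34282, 0.850 for CG6933 and 0.904 for CG7606. It was 0.928 for ImpE2, 0.963 for Jon66Ci, 0.918 for Lcp9 and 0.946 for Pcp, a pupal cuticle gene. In all, 13 genes were past the limit in both labels.

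Of the arrays outside replicate 1, null 4 was the highest null array for CG33272, at 0.887, and for the seminal fluid gene Dup99B, at 0.886. Null 3 was the highest for CG14329, at 0.873, and null 2 the lowest for Prx3, at 0.952. For alphaTry, a trypsin gene, the top het array was the one labelled het 3, at 0.833, and for Ote the bottom one was that labelled het 2, at 0.832.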

How the results depend on the processing

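No alternative brought a null minus het difference of a glue gene to an adjusted p under 0.05 by limma, the lowest over all of them being 0.968. Fits without a replicate block that kept a replicate 1 array could hardly reach it, as the genes were picked for their height there. Array weights, which gave null 1 a weight of 3.15 and het 1 one of 2.23, turned the differences to 0.71 for Sgs3, 0.48 for Sgs7, 0.60 for Sgs8 and 0.74 for Sgs5. Leaving out each array in turn gave -2.12 to 0.86 for Sgs3, -2.25 to 0.80 for Sgs7, -2.30 to 0.98 for Sgs8 and -1.49 to 1.23 for Sgs5, lowest without null 1 and highest without het 1. Both ends of these ranges follow from how the genes were picked. The filter on dim probe sets removed Sgs5. The 28 probe sets at the study's thresholds became 15 with the unmoderated test, 63 with array weights, 125 without both replicate 1 arrays, 170 without them and with the replicate number as a block, and 13 (without het 4) to 98 (without null 1) with 1 array left out. The count of 38 probe sets high in replicate 1 became 62 at 1.5-fold, 19 at 4-fold, 15 with the filter on dim probe sets, and 38 to 61 with 1 array left out. The count of 30 with the glue gene profile became 3 with Spearman's rho, and 26 to 35 with 1 array left out. The excess of each glue gene moved under median centring and cyclic loess by less than its SD over the 6 arrays outside replicate 1, null and het together.

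After subtraction of the label mean, null and het arrays 1 to 4 correlated with their namesakes at -0.0018, 0.38, 0.54 and -0.10. Null and het arrays of different number correlated at -0.46 (null 3 with het 2) to 0.18 (null 3 with het 4). The namesakes numbered 2 and 3 were thus above this range, and those numbered 1 and 4 were within it. Whether samples of the same number belong together was not tested, and the main fit did not pair them. In the replicate block fit the differences stayed at -0.64 for Sgs3, -0.76 for Sgs7, -0.70 for Sgs8 and -0.25 for Sgs5, with SEs of 0.30, 0.29, 0.21 and 0.20 and an adjusted p of 0.997 for each by limma. Sgs7 and Sgs8 had an unadjusted p under 0.05 in that fit, as had 842 probe sets or 4.49%, and neither reached 2-fold. The study's thresholds were passed by 39 probe sets, or 0.208%.

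Most of the probe sets described here were dim on 6 of 8 arrays, where an RMA signal says little about low levels of RNA, and each label held 1 array with high glue gene signal.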
